A study of Mus musculus with 6 samples.

Results

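The set examined here holds 9 genes that mark basophils, mast cells and eosinophils, the granulocytes of IgE responses and allergic inflammation: the granule proteases Mcpt8, Cpa3 and Prss34, the IgE receptor chains Fcer1a and Ms4a2, the histamine-forming enzyme Hdc, the eosinophil granule proteins Epx and Prg2, and the cytokine Il4. Members were probe sets annotated with exactly 1 gene symbol, that symbol being on the list. They comprised 10 probe sets of 8 genes, among 45037 probe sets and 17097 genes measured. Prss34 was not analysed here, because no probe set carried its symbol alone. The brightest probe set on average over the 6 arrays stood for each gene, and the other probe sets of Ms4a2 and Hdc are given beside it.

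The samples were 3 arrays of HDAC7-deficient pro-B cells, from mice the series' design text calls HDAC7 conditional, and 3 arrays of wild-type pro-B cells. HDAC7 belongs to the class IIa histone deacetylases. Pro-B cells are committed B lineage precursors in the bone marrow, and both groups were purified on a cell sorter by the surface phenotype B220+CD43+IgM-. The sources used here do not name the driver of the deletion, or the strain and age of the mice. The study asked whether HDAC7 keeps genes of other blood lineages silent in these precursors, and the genes of this set belong to such lineages. Levels are the authors' deposited log2 values per probe set, and a difference of 1 on this scale is a doubling.

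Mast cells and basophils carry a high-affinity IgE receptor made of an alpha chain that binds IgE, a beta chain that amplifies the signal and a gamma chain shared with other Fc receptors. Its cross-linking empties granules of histamine and proteases, and basophils also release IL-4. Eosinophils store a peroxidase and a highly basic protein in their granules. These lineages arise from myeloid progenitors of the bone marrow, not from committed B cell precursors, and the transcription factor GATA2 is known to be needed for mast cells and basophils.

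Before any comparison, 1 array differed from the rest, wild-type replicate 3. Its correlations with the other 5 over all probe sets were 0.70 to 0.82, against a best correlation of 0.98 to 0.99 for each of those 5. Its interquartile range was 1.72, against 2.27 to 2.93 on the others. The table holds no detection calls, so the 41 olfactory receptor genes, not known to be used in pro-B cells, served as a gauge of dim signal on each array. Their 95th percentile was 5.56 to 5.99 on the HDAC7-deficient arrays and 6.34, 5.75 and 7.93 on wild-type replicates 1, 2 and 3. Dim genes thus read higher on wild-type replicate 3, and all 8 measured members lay below its gauge, so any difference that includes this array uses a value at the level of dim signal. This gauge marks dim signal and gives no absolute level, since probe sets respond differently. The arrays were further divided by Xist, with 11.40, 11.27 and 8.51 on HDAC7-deficient replicates 2 and 3 and wild-type replicate 3, and 4.87, 5.38 and 5.17 on HDAC7-deficient replicate 1 and wild-type replicates 1 and 2. The means of the hybridisation spike-ins were also higher on the first 3 of these, at 9.77, 10.60 and 9.99, against 8.43, 8.93 and 8.69 on the last 3. Hdac7 itself was not lower on the HDAC7-deficient arrays, at 9.59 ± 0.34, against 8.62 ± 1.15 in wild type (SD, n = 3 each), of which wild-type replicate 3 read 7.31. The deleted part of the gene and the position of these probes are unknown here, so its level is no check of the labels.

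Markers of the labelled cell type lay above the gauge on 5 of 6 arrays, while on wild-type replicate 3 Pax5, Rag1 and Dntt, 3 of the 9 measured, lay below it. The median of 9 measured early B cell genes was 10.47, 9.84 and 9.88 on HDAC7-deficient replicates 1, 2 and 3, and 10.13, 10.40 and 8.34 on wild-type replicates 1, 2 and 3. Genes of neutrophil granules did likewise, with Elane, Prtn3 and Ctsg below the gauge on wild-type replicate 3 and 0 below it elsewhere. The median of 10 neutrophil genes was 10.71, 11.48 and 11.53 on the HDAC7-deficient arrays and 10.95, 10.71 and 9.45 on the wild-type arrays.

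No difference between HDAC7-deficient and wild-type pro-B cells passed the test for any member. In limma, with p-values adjusted over all 17097 genes, 0 of 8 measured members passed an adjusted p of 0.05, where 0% of all genes passed. At an unadjusted p under 0.05 there were again 0 of 8, against 12.7% of all genes. In none of the 8 did the groups separate, whereas 26.3% of all genes had groups that did not overlap. The members' median difference was 0.01, beside -0.03 over all genes, with 4 members higher, against 48.0% of all genes, and 4 lower. All p-values of single genes here are from limma. With 3 arrays a group, exact permutation could reach no p below 0.1. In bulk samples such as these, fewer cells of a type and less RNA per cell cannot be told apart.

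**Figure D1:**
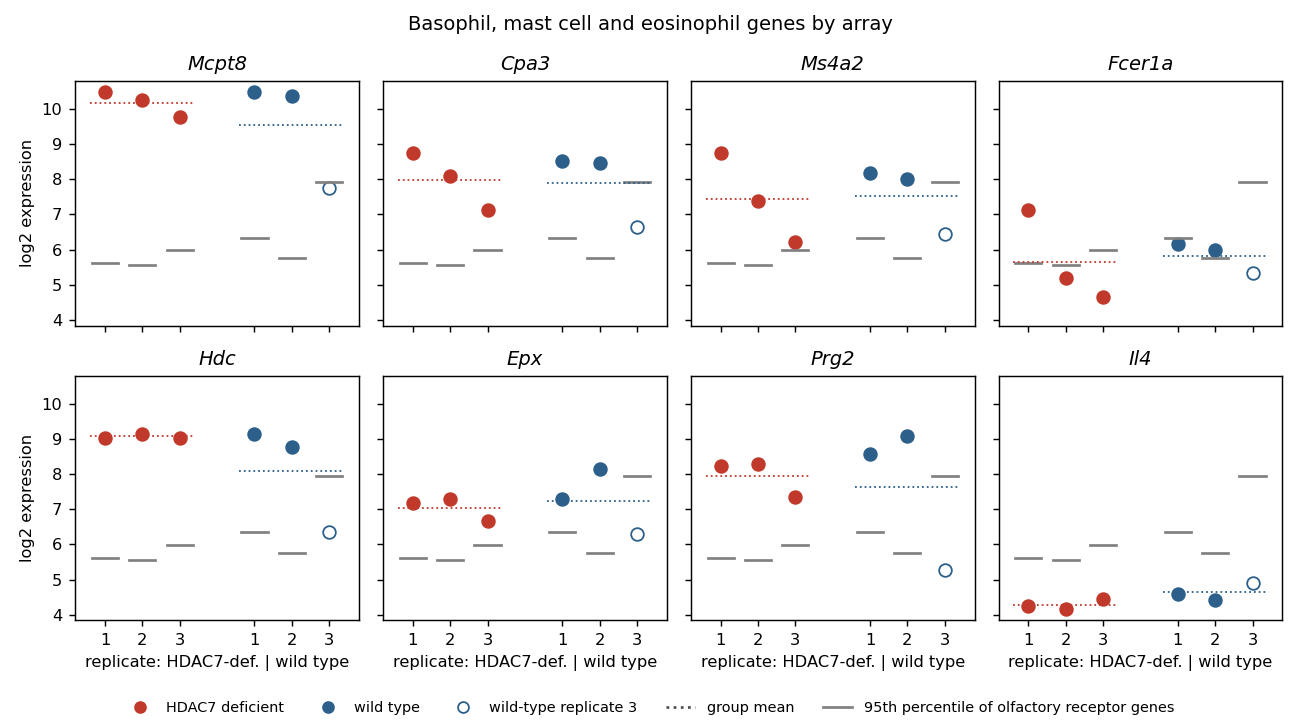
Deposited log2 expression of the 8 measured genes on each array, with HDAC7-deficient replicates 1 to 3 left of wild-type replicates 1 to 3 in every panel. Dotted lines are group means, grey bars are the 95th percentile of 41 olfactory receptor genes on the same array, and the open circle is wild-type replicate 3. Mcpt8, Cpa3, Ms4a2, Hdc, Epx and Prg2 lie above the grey bar on all arrays but that one, and Il4 lies below it on all 6.

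Mcpt8 encodes mouse mast cell protease 8, which in spite of its name is a granule protease of basophils. It read 10.46, 10.25 and 9.76 on HDAC7-deficient replicates 1, 2 and 3, against 10.47, 10.37 and 7.74 on wild-type replicates 1, 2 and 3. The 3 HDAC7-deficient arrays and 2 of the wild-type arrays lay close together and far above the olfactory receptor gauge, and wild-type replicate 3 was 2.02 below the next lowest array. The difference was 0.63 ± 0.75 (standard error), with a limma adjusted p of 0.573 and a 95% interval of -1.13 to 2.39. Without wild-type replicate 3 it was -0.26 ± 0.20.

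Cpa3 encodes carboxypeptidase A3, a granule enzyme of mast cells and basophils. Its levels were 8.74, 8.09 and 7.11 in the HDAC7-deficient samples, against 8.51, 8.47 and 6.65 in the wild-type samples. HDAC7-deficient replicate 1 was the highest array and wild-type replicate 3 the lowest, and the groups overlapped. The difference was 0.11 ± 0.64 with a limma adjusted p of 0.914, and -0.51 ± 0.42 without wild-type replicate 3.

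Ms4a2 encodes the beta chain of the IgE receptor and had 2 probe sets. The brighter one read 8.75, 7.38 and 6.22 on the HDAC7-deficient arrays, against 8.17, 8.0 and 6.43 on the wild-type arrays. HDAC7-deficient replicate 1 was the highest of all arrays and replicate 3 of the same group the lowest, so the spread lay within the group. The other probe set gave 7.18, 5.65 and 4.82 in HDAC7-deficient cells, against 6.01, 6.02 and 5.41 in wild-type cells, with the same 2 arrays at the extremes. The differences were -0.09 ± 0.73 for the brighter (limma adjusted p = 0.940) and 0.07 ± 0.57 for the other (0.941 over all probe sets). Without wild-type replicate 3 the brighter gave -0.64 ± 0.61.

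Fcer1a encodes the alpha chain, which binds IgE. It read 7.11, 5.20 and 4.65 on HDAC7-deficient arrays, against 6.15, 5.98 and 5.35 on wild-type arrays. It lay above the olfactory receptor gauge on 2 of 6 arrays, HDAC7-deficient replicate 1 and wild-type replicate 2. The difference was -0.17 ± 0.61, with a limma adjusted p of 0.855 and a 95% interval of -1.62 to 1.28. It was -0.41 ± 0.61 without wild-type replicate 3.

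Among the 6 members above the gauge on all HDAC7-deficient arrays, Ms4a2 and Cpa3 had the widest spread within that group. HDAC7-deficient replicate 1 lay above replicate 3 by 2.53 (Ms4a2) and 1.63 (Cpa3), which is 5.77- and 3.09-fold. For Fcer1a the deposited values differed by 2.46, but replicate 3 lay below its gauge, and against that gauge replicate 1 was higher by 1.12. The second Ms4a2 probe set, also below the gauge on replicate 3, gave 2.36. For Mcpt8, Hdc, Epx and Prg2 the same difference was 0.70, 0.00, 0.53 and 0.88. Over all genes, 21 of 17097 (0.123%) differed by 2 or more in this direction, Ms4a2 and Fcer1a among them, and 514 (3.01%) by 1 or more. These are differences between single arrays, with no replicate error, and the 3 genes were grouped after their values were seen. Early B cell genes moved with this pattern, as 9 of 9 measured were highest on replicate 1 within the HDAC7-deficient group, while 9 of 10 neutrophil genes were lowest there. Such lows were not particular to neutrophil genes. All measured T cell genes but Cd3g, erythroid and megakaryocyte genes but Itga2b, and macrophage genes but Adgre1 and Mrc1 were lowest there too. The share of all genes with either order is not given here. The part of any of these lists in the result was not tested.

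**Figure D2:**
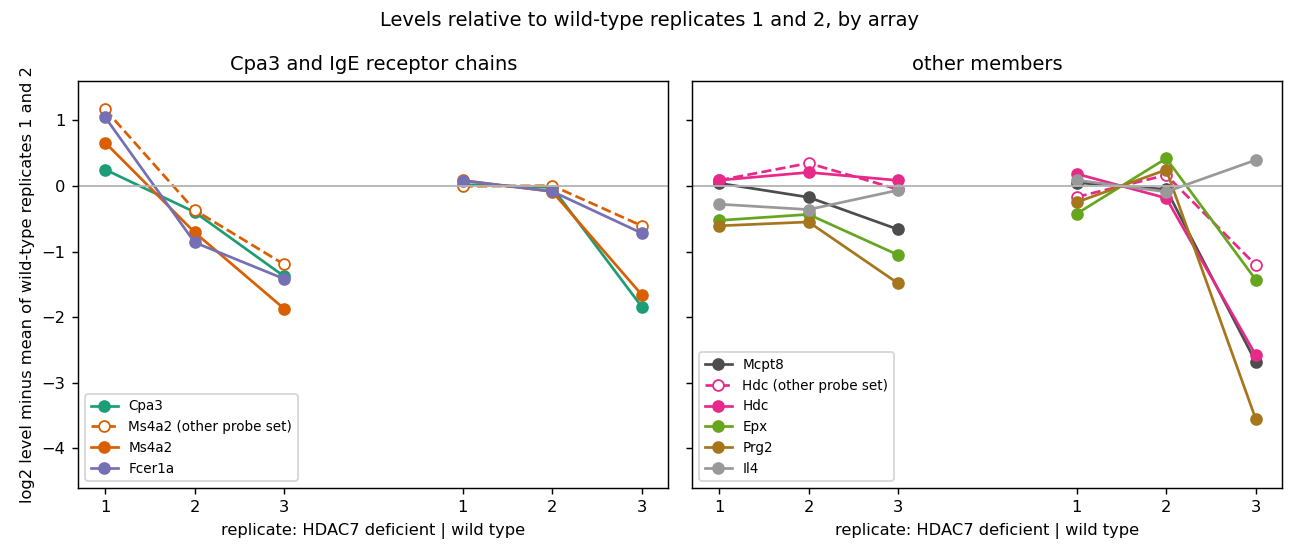
Level of each probe set on each array minus its own mean on wild-type replicates 1 and 2, in log2 units, with HDAC7-deficient arrays left of wild-type arrays. Lines join the points of 1 probe set for tracing, since replicates have no order, and open symbols are second probe sets. Ms4a2 and Fcer1a span 2.36 to 2.53 within the HDAC7-deficient group, where Fcer1a and the second Ms4a2 probe set lie below the olfactory receptor gauge on replicate 3, whereas Hdc is nearly level there and falls away on wild-type replicate 3.

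The promoters of these 3 genes are shown because these genes had the largest differences in deposited values between HDAC7-deficient arrays and because GATA factors are known to act on genes of mast cells and basophils. They are RefSeq sequences of build GRCm38.p6, with AGATAA or TGATAA on either strand in capitals. Each runs from 250 bases before to 50 bases after an annotated start, called the gene start here. For these genes, and for Mcpt8 and Hdc below, that start lies inside the annotated span of the gene. For these 3 genes some bases counted as before it therefore lie within that span. The whole window does so for Mcpt8, for Hdc and for 1 of the Il4 windows.
Ms4a2, chr19:11623670-11623969, minus strand: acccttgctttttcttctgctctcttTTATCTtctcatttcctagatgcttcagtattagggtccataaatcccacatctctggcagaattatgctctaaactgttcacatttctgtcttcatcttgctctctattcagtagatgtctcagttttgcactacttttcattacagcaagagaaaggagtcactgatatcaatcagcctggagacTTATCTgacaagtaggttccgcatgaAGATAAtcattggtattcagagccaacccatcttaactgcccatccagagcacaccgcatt
Fcer1a, chr1:173227180-173227479, minus strand: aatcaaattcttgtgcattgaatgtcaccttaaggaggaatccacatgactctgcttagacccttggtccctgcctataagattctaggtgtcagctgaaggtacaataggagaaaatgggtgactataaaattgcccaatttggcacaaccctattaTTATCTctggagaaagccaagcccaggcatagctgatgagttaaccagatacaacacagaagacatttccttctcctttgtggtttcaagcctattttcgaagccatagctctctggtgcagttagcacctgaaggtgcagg
Cpa3, chr3:20242132-20242431, minus strand: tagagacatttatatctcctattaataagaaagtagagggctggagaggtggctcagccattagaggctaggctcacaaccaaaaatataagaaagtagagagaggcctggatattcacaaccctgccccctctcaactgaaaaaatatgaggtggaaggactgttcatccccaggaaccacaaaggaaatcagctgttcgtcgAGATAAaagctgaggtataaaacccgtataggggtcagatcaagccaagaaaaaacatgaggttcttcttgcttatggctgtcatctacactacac
The Ms4a2 window held AGATAA at 3 places, starting 224, 37 and 11 bases before the gene start, the first 2 on the opposite strand and read here as TTATCT. The Fcer1a window held it once on the opposite strand, 92 bases before the start, and the Cpa3 window once on the gene's own strand, 46 bases before the start. Of 32851 mouse promoter windows of this length, 11.2% held AGATAA and 18.6% held AGATAA or TGATAA. Promoters were found for 8 of the 9 genes, Prg2 being the one without an entry, and 5 of these 8 genes held 1 of the 2 forms (Cpa3, Fcer1a, Il4, Ms4a2 and Prss34). Counted by window, as the share of all windows is, this was 5 of 9, since Il4 had more than 1 window. The MEF2 motif, named for the factors that recruit class IIa deacetylases, matched in Cpa3 and Il4, and in 3.19% of all windows. Of the other motifs searched on both strands, TGTGGT (RUNX) was found in Fcer1a, Cpa3 and Mcpt8 and in 16.8% of all windows, and CACCTG (E-box) in Fcer1a and Mcpt8 and in 20.2%. TTGCNNAA (C/EBP) was found in Fcer1a and Il4 and in 10.8% of all windows, and AGAGGAAG (PU.1) in none of these genes and in 4.55%. Such matches describe the letters of these windows.

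A link between these letters and the spread within the HDAC7-deficient group was not tested. Il4, with TGATAA in 1 of its windows only, spread by 0.30. It lay below the olfactory receptor gauge on all 6 arrays, so its spread is that of dim signal. Mcpt8, Epx and Hdc, whose windows held neither form, spread by 0.70, 0.62 and 0.12. The Mcpt8 and Hdc windows lie wholly inside the annotated spans of their genes, and no GATA form other than AGATAA and TGATAA was searched. The Mcpt8 window is shown as that of the brightest of Mcpt8, Epx and Hdc.
Mcpt8, chr14:56085148-56085447, minus strand: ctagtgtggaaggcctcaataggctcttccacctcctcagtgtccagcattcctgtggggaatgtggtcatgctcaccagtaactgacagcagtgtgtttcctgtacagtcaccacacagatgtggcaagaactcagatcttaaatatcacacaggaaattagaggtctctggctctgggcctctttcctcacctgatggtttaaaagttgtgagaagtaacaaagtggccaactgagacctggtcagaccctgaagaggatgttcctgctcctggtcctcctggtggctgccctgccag

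Gata2 and Fcer1g are named for their role, outside the naming rule. Gata2 read 8.73, 8.12 and 8.19 in HDAC7-deficient cells, against 8.69, 8.38 and 8.48 in wild-type cells, a difference of -0.17 ± 0.30 with a limma adjusted p of 0.713. It lay above the olfactory receptor gauge on all 6 arrays, wild-type replicate 3 included. Fcer1g, the shared gamma chain, was bright on all arrays, at 10.94 ± 0.29 in HDAC7-deficient and 10.54 ± 0.16 in wild-type cells (SD, n = 3 each), with a limma adjusted p of 0.425.

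Hdc encodes histidine decarboxylase, which makes histamine. It was the steadiest member within the HDAC7-deficient group, at 9.02, 9.15 and 9.02, against 9.12, 8.75 and 6.36 in wild type. The HDAC7-deficient values lay within or just above the range of wild-type replicates 1 and 2, and wild-type replicate 3 was 2.39 below the next lowest array. The difference of 0.99 ± 0.71 (limma adjusted p = 0.430) was the largest of the 8, and it was 0.13 ± 0.19 without wild-type replicate 3. The second probe set read 7.58, 7.84 and 7.44 in HDAC7-deficient cells, against 7.32, 7.66 and 6.29 in wild-type cells. Its difference was 0.53 ± 0.39, or 0.13 without that array.

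Epx and Prg2 encode eosinophil peroxidase and major basic protein, both stored in eosinophil granules. Epx read 7.19, 7.28 and 6.66 in HDAC7-deficient cells, against 7.29, 8.13 and 6.28 in wild-type cells. Prg2 read 8.22, 8.28 and 7.34 in HDAC7-deficient cells, against 8.58, 9.07 and 5.28 in wild-type cells. For both genes wild-type replicates 1 and 2 were above every HDAC7-deficient array and wild-type replicate 3 was below every one. The differences were -0.19 ± 0.48 for Epx (limma adjusted p = 0.786) and 0.30 ± 0.96 for Prg2 (0.835).

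Leaving out wild-type replicate 3 changed the direction of Prg2. It was then -0.88 ± 0.33, with an unadjusted p of 0.0268, where 8.84% of all genes were lower at an unadjusted p under 0.05, and a limma adjusted p of 0.317, and Epx was -0.67 ± 0.32 with an adjusted p of 0.390. They were the 2 members of 8 whose groups then did not overlap, both lower in HDAC7-deficient cells, beside 19.0% of all genes lower without overlap in the same 5 arrays. Prg3, a homologue of Prg2 that eosinophils also store, read 7.02, 6.54 and 6.23 in HDAC7-deficient cells, against 7.14, 7.35 and 6.34 in wild-type cells. Its difference was -0.34 ± 0.35, or -0.65 ± 0.27 without that array, and it did not pass either way.

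**Figure D3:**
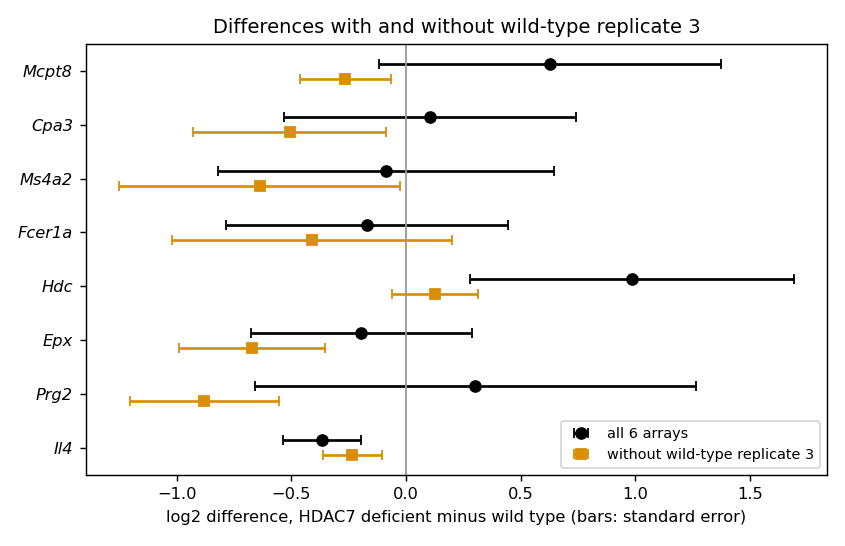
Log2 difference of HDAC7-deficient minus wild-type pro-B cells for each gene, with bars of 1 standard error. Black circles use all 6 arrays and orange squares leave out wild-type replicate 3; with it left out, Mcpt8, Cpa3 and Prg2 lie on the other side of 0 and 7 of 8 genes are lower.

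Il4, the cytokine of type 2 responses, was dim on every array. It read 4.24, 4.16 and 4.45 in HDAC7-deficient cells, against 4.60, 4.43 and 4.91 in wild-type cells, below the olfactory receptor gauge on all 6 arrays. The difference was -0.37 ± 0.17 with a limma adjusted p of 0.377, or -0.23 ± 0.13 without wild-type replicate 3, and Il4 was the member with the smallest unadjusted p, 0.0682. Its highest value was on wild-type replicate 3, where 45.8% of all genes had their highest value. Its neighbours in the type 2 cytokine cluster were dim as well. Il13 was 4.23, 4.22 and 4.67 in HDAC7-deficient cells, against 4.49, 4.46 and 4.59 in wild-type cells, and Il5 was 4.59, 4.81 and 5.23, against 5.19, 4.88 and 5.57. Rad50, the DNA repair gene between Il5 and Il13, differed by 0.58 ± 0.41, the kinesin gene Kif3a by 0.00 ± 0.35 and the transcription factor gene Irf1 by 0.64 ± 0.39. Without wild-type replicate 3 Rad50 was 0.22 and Irf1 0.33. The receptor genes Il4ra and Il13ra1 differed by 0.57 ± 0.30 and 0.33 ± 0.17. None of the 7 measured genes of this list passed.

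Leaving out wild-type replicate 3 lowered the difference of 7 of 8 members, Il4 being the exception. That array was the lowest of 6 arrays for 5 of 8 members (Mcpt8, Cpa3, Hdc, Epx and Prg2), against 37.8% of all genes. Without it 0 of 8 members passed an adjusted p of 0.05, beside 0% of all genes, 1 of 8 was higher, against 43.2% of all genes, and the median difference was -0.46, beside -0.05 over all genes. Within the Xist-low arrays, which compare HDAC7-deficient replicate 1 with wild-type replicates 1 and 2, the members' median difference was 0.07, beside -0.04 over all genes. Within the Xist-high arrays, whose single wild-type array is replicate 3, it was 0.82, beside -0.12. With this division as a block 0 of 8 members passed, with limma adjusted p-values of 0.101 (Il4) to 0.882 (Epx).

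Other genes of these lineages gave no calls either, in lists chosen for their known roles. Of 10 measured mast cell genes 0 passed, 9 were lower and 5 had an unadjusted p under 0.05, beside 9.14% of all genes lower at that level. Groups did not overlap for 6 of the 10, all lower, beside 26.3% of all genes in either direction. Without wild-type replicate 3, 0 passed and 8 were lower. In that fit 5 of the 10 had an unadjusted limma p under 0.05, beside 8.84% of all genes lower at that level. Mcpt1 and Mcpt2 encode proteases of mucosal mast cells. Mcpt1 read 3.66, 3.80 and 4.28 in HDAC7-deficient cells, against 5.59, 4.48 and 7.19 in wild-type cells, a difference of -1.84 ± 0.63 with a limma adjusted p of 0.377. Mcpt2 differed by -0.98 ± 0.37, and the tryptase genes Tpsb2 and Tpsg1 by -0.64 ± 0.23 and -0.52 ± 0.19. Without wild-type replicate 3 Mcpt1 was -1.12, Mcpt2 -0.59, Tpsb2 -0.44 and Tpsg1 -0.37. All 4 read highest on wild-type replicate 3, the array on which dim genes read high, and Mcpt1, Mcpt2 and Tpsg1 lay above the olfactory receptor gauge on 0 of 6 arrays. Cma1, a mast cell chymase gene named after its values were seen, lay above it on all 6, at 6.59, 6.49 and 7.03 in HDAC7-deficient cells, against 7.30, 6.98 and 8.25 in wild-type cells. Its difference was -0.81 ± 0.38, with a limma adjusted p of 0.377, or -0.44 without wild-type replicate 3.

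Of 9 measured basophil genes 7 were higher and 0 passed. The receptor subunits for interleukin 3 family cytokines Csf2rb and Csf2rb2, used by many myeloid cells, differed by 1.34 ± 0.83 and 1.11 ± 0.65. These were 0.31 ± 0.13 and 0.36 ± 0.19 without wild-type replicate 3. Il18rap, a cytokine receptor chain, differed by 0.88 ± 0.52 and the interleukin 3 receptor gene Il3ra by 0.36 ± 0.23, or 0.33 and 0.17 without that array.

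Of 6 measured eosinophil genes 5 were lower and 0 passed. The ribonuclease gene Rnase2a differed by -0.85 ± 0.25, the interleukin 5 receptor gene Il5ra by -1.07 ± 0.47 and the eotaxin receptor gene Ccr3 by -0.28 ± 0.30, each with values above the olfactory receptor gauge on at most 1 array. Without wild-type replicate 3 these were -0.95, -0.53 and 0.06, so that Ccr3 turned direction. Of 8 factors of granulocyte lineages 7 were higher and 0 passed. Cebpa, which myeloid progenitors need, read 9.69, 9.78 and 9.72 in HDAC7-deficient cells, against 9.99, 9.63 and 5.30 in wild-type cells, so that its difference of 1.42 ± 1.17 was -0.08 ± 0.16 without wild-type replicate 3. Xbp1, a secretory cell factor, differed by 1.34 ± 0.74, Stat5a by 1.34 ± 0.97 and Stat5b by 0.93 ± 0.69, or 0.44, 0.13 and 0.11 without that array.

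Of 11 measured genes of IgE receptor signalling, many of which B cells also use, 8 were higher and 0 passed. The adaptor gene Lcp2 differed by 0.78 ± 0.30, or 0.59 ± 0.25 without wild-type replicate 3. Groups did not overlap for 2 of the 11, Lcp2 and Lat2, both higher, beside 9.45% of all genes higher without overlap. Lat2, Fyn and Syk differed by 0.52 ± 0.34, 1.26 ± 0.85 and 1.79 ± 1.23, or 0.23, 0.20 and 0.21 without that array.

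**Figure D4:**
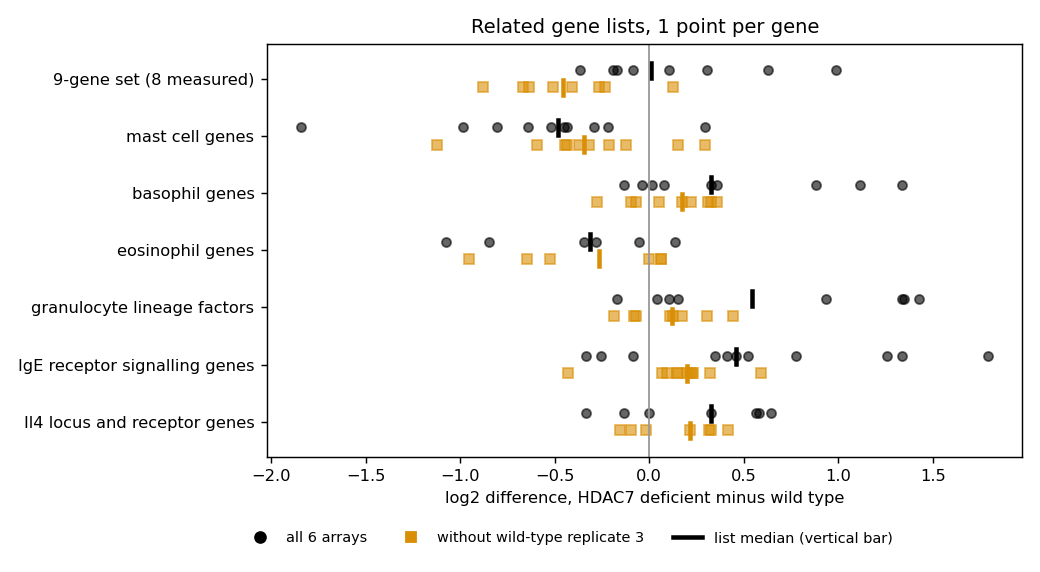
Log2 difference of HDAC7-deficient minus wild-type pro-B cells for each measured gene of the set and of 6 related lists, 1 point per gene, with vertical bars at list medians. Black circles use all 6 arrays and orange squares leave out wild-type replicate 3; the set's median is 0.01 with all arrays and -0.46 without that one.

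By Pearson correlation over the 6 arrays, which is dominated by wild-type replicate 3, the genes most like Prg2, the member with the largest SD over arrays (1.36), were Coa8, Trim28, Fem1a, Tssc4 and Trmt112, with r of 0.992 to 0.996. As many as 2019 genes had an r above 0.9 to Prg2, so this likeness is common. The genes most like Il4 were Cdr2l, Slc8a3, Cyp3a16, Trarg1 and Rab9b, with r of 0.998 to 0.999, and 4238 genes had an r above 0.9 to Il4.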

How the data were processed

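Expression was measured in sorted mouse pro-B cells on 6 Affymetrix perfect-match arrays, 3 per group, after whole transcriptome amplification of total RNA, per the labels' protocols. For each array, the authors deposited a log2 value per probe set. How these were summarised and normalized is not given in the sources used here. Their range shows the log2 scale. The submitters call the replicates biological. The table held 45141 probe sets, 104 of them controls that were set aside. A platform annotation gave 1 symbol for 28898, several for 551 and none for 15588, and 28689 symbols were updated by Entrez number from RefSeq (GRCm38.p6). Of 17097 genes, 7180 had more than 1 probe set, and the brightest represented each.

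The comparison used limma 3.58.1, run in R 4.3.3 (intensity trend, two-sided, Benjamini-Hochberg adjustment over all genes, threshold 0.05), with no filter on dim genes. The fit was first tested on simulated data. These held no outlying array, so that test does not show how the fit handles wild-type replicate 3. The number of arrays limits the precision. The members and lists were chosen with earlier results of these data known. Named genes were all members, up to 4 genes per related list by smallest p, the whole Il4 locus list, and the 5 genes most correlated with 2 members. As alternatives, each array was left out, the replicate number or the Xist division was a block, and other normalizations, filters, variance models, array weights and the mean over probe sets were used. Promoters are RefSeq sequences. Figures used matplotlib 3.10.9 in Python 3.11.15.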

Additional observations from a re-analysis of the deposited data

Results flagged for a closer look

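For Fcer1a, Epx and Prg2 the HDAC7-deficient arrays differed from the wild-type arrays one way within the Xist-low arrays and the opposite way within the Xist-high arrays, in every pair of arrays. For Fcer1a HDAC7-deficient cells were higher by 1.05 within the Xist-low arrays and differed by -0.42 within the Xist-high arrays, so that the change within the Xist-high arrays minus that within the Xist-low arrays was -1.47. For Epx the Xist-low difference was -0.52 and the Xist-high one 0.68, 1.21 apart. For Prg2 the Xist-low difference was -0.61 and the Xist-high one 2.53, 3.14 apart. This contrast was not tested, since each side rests on 1 array of 1 group, HDAC7-deficient replicate 1 on the Xist-low and wild-type replicate 3 on the Xist-high side. All 3 genes lay below the olfactory receptor gauge on wild-type replicate 3, so the Xist division and the quality of that array cannot be told apart. Fcer1a lay below the gauge on every Xist-high array, so its Xist-high difference compares dim values only. No group held more than 3 arrays, so no test for single outlying arrays was made.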

How the results depend on the processing

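No member passed the threshold in 15 of the 16 alternatives. With array weights 8452 of 17097 genes passed, and 1 of 8 members, Il4 (-0.38 ± 0.08, limma adjusted p = 0.00342). In that fit 1 member was higher. The weights ran from 0.07 for wild-type replicate 3 to 8.68 for wild-type replicate 1, so that fit rests on few arrays. Over the other fits Il4's lowest limma adjusted p was 0.101. Array weights turned Mcpt8 to -0.25, Cpa3 to -0.48 and Prg2 to -0.46. The replicate block called 1 gene, Hspa1b, and no member; same-numbered arrays correlated at 0.0964, 0.208 and 0.476 in their deviations, HDAC7-deficient replicate 1 correlated best with wild-type replicate 2 (0.357), and the numbers were not taken as pairs. The Xist block gave 7 higher members, with Ms4a2 at 0.51, Fcer1a at 0.31 and Epx at 0.0803. With that block and without wild-type replicate 3, the Xist-high arrays are all HDAC7-deficient. The group difference then compares HDAC7-deficient replicate 1 alone with wild-type replicates 1 and 2, and equals that within the Xist-low arrays. It was 0.66 for Ms4a2, 1.05 for Fcer1a and -0.61 for Prg2. In that fit 4 genes and no member passed, a count that rests on 1 HDAC7-deficient array, so no conclusion is drawn from it.

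Leaving out each array gave 0 calls throughout, 1 to 6 higher members, 0 to 2 of 8 members without overlap, beside 28.2% to 61.2% of all genes, and a median from -0.46 to 0.53. Over these fits the changes ran from -0.26 to 1.10 for Mcpt8, -0.51 to 0.54 for Cpa3, -0.74 to 0.53 for Ms4a2, -0.90 to 0.33 for Fcer1a, -0.67 to 0.25 for Epx and -0.88 to 1.02 for Prg2, while Hdc (0.13 to 1.51) and Il4 (-0.48 to -0.23) kept their direction. Quantile normalization turned Cpa3 to -0.0752 and median centring, which shifted the median of all genes by 0.14, turned Ms4a2 to 0.0494. Those 2 scalings and the mean over probe sets each left 1 of 8 members without overlap, beside 24.7%, 26.5% and 27.4% of all genes. Leaving out the dimmest 25% of genes removed Il4, and the dimmest 50% also Fcer1a. The members' median difference was then 0.11, beside 0.18 over the genes kept, and 0.20, beside 0.42. Among brighter genes the members' median thus lay below that of the genes kept. Of 125 member changes, 104 kept their direction and 21 turned. The 104 include fits that cannot alter a member's difference: the replicate block, both dim filters and the fit without an intensity trend. For members with 1 probe set, the mean over probe sets is also unchanged. The 104 are therefore no measure of stability, and the cause of the turns was not tested.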
